A study of Mus musculus with 13 samples.

Results

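The genes described here are those of early B lineage specification and of the pre-B cell receptor (pre-BCR). They are Ebf1, Pax5, Vpreb1, Igll1, Vpreb3, Cd79a, Cd79b, and Blnk, taken by gene symbol, and they are 8 of the 24972 genes measured. RNA was measured in common lymphoid progenitors (CLPs) of adult mouse BM, 1 library per mouse, in 5 WT, 5 Notch1+/-, and 3 Notch1+/dTAD libraries. The labels give the strain as C57BL/6, and per the methods the alleles had been backcrossed to C57BL/6J. Mice were 6 to 12 weeks of age and untreated. WT mice carry both functional alleles of Notch1. Notch1+/- mice carry a null allele beside a functional one, and Notch1+/dTAD mice carry an allele without the transactivation domain (also written ΔTAD) beside a functional one. The altered alleles are carried in all cells of the mouse and not in CLPs alone. CLPs were sorted as DAPI-/Lin-/Sca1Lo/cKitLo/CD127+/CD135+ cells. The labels and the methods disagree by orders of magnitude on how many cells were sorted, and the methods describe changes to the library protocol for low RNA input.

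EBF1 and PAX5 are the transcription factors that specify the B lineage and then commit cells to it. VPREB1 and IGLL1 together form the surrogate light chain, which pairs with the μ heavy chain before any light chain has been rearranged. CD79A and CD79B form the heterodimer that carries the signal of the pre-BCR, and BLNK is the adaptor that links the kinase SYK to the enzymes downstream. VPREB3 is a related protein that associates with μ chains inside early B cells. Part of the CLP population, marked by LY6D, is biased to the B lineage, and Notch1 signaling in lymphoid progenitors favors the T lineage over the B lineage.

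The values are TPM, transcript abundances that the authors scaled to sum to 1000000 in each library. Read counts were not used here. The depth is therefore unknown, and a value listed at 0 has no known upper bound. The commonest value above 0 in a library, called a step here, ranged from 0.550 to 1.41 TPM. Of the 32 values above 0 of the short genes Cd79a, Cd79b, Vpreb1, Vpreb3, and Igll1, 31 were whole multiples of the step of their library within 0.01 step, and 7 were exactly 1 step. How many reads 1 step stands for is not given in the sources used here. The longer genes Ebf1, Pax5, and Blnk had whole multiples in 1 of 32 values. The libraries hold 3′ ends whereas TPM divides by gene length, so a higher TPM of 1 gene than of another need not mean more transcripts, and the sums and shares below describe TPM only.

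In coordinates of GRCm38 with GENCODE M21 gene models, Ebf1 lies at chr11:44617317-45008091 on the plus strand and Pax5 at chr4:44524757-44710487 on the minus strand. Igll1, at chr16:16860671-16863985, and Vpreb1, at chr16:16868403-16870843, both lie on the minus strand, 4417 bases apart. Vpreb1 overlaps Top3b on the other strand. Vpreb3 lies at chr10:75943057-75949657 and Cd79a at chr7:24897381-24902197, both on the plus strand. Cd79b, at chr11:106311341-106314762, and Blnk, at chr19:40928927-40994535, lie on the minus strand. Vpreb2, at chr16:17980428-17981273, is a near copy of Vpreb1 with 97.8% identity over 686 aligned bases of transcript, so values of these 2 genes are uncertain where reads could be shared.

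RefSeq start sites on GRCm38.p6 gave promoter sequences, 250 bases before and 50 after the start, for 7 of the 8 genes, in 8 promoters because Ebf1 has 2. No Cd79b promoter is shown. Both strands were searched for letters bound by factors of early B cells. The EBF1 core AAGGGA was found in 4 of the 8 promoters (Cd79a, Ebf1, Igll1, and Blnk), against 22.4% of all 32851 promoters. The palindrome CCCNNGGG, also bound by EBF1, was found in that of Igll1 and in 13.7% of all promoters. The E-box CAGGTG, bound by the E2A proteins of Tcf3, was found in 4 (Cd79a, Igll1, Vpreb1, and Blnk) and in 20.2% of all promoters. The octamer ATTTGCAT, bound by POU2F1 and POU2F2, was found in 2 (Vpreb3 and Blnk) and in 1.74% of all, and the Ikaros core TGGGAA in 1 (Ebf1) and in 25.6%. These matches describe letters and not binding. The promoters below are those of the 3 genes whose levels differed most between ranges of library numbers and of Blnk, the only one of the 8 genes above 0 in all 13 libraries. They are written 5′ to 3′ with all of these motifs in capitals on either strand, and in that of Blnk AAGGGA and ATTTGCAT share 1 base.
Igll1 (minus strand of chr16:16863936-16864235): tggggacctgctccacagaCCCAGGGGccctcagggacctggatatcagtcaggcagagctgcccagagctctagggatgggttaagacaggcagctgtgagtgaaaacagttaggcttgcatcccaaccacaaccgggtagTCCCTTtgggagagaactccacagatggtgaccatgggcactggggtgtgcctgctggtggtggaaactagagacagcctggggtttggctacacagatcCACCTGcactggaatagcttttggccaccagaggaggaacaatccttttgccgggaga
Vpreb1 (minus strand of chr16:16869206-16869505): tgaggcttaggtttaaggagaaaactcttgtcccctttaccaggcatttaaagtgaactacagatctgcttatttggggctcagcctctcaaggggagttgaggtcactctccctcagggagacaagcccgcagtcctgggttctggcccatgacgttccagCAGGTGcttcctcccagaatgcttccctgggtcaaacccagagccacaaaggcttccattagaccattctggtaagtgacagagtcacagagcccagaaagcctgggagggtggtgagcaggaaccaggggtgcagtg
Cd79a (plus strand of chr7:24897247-24897546): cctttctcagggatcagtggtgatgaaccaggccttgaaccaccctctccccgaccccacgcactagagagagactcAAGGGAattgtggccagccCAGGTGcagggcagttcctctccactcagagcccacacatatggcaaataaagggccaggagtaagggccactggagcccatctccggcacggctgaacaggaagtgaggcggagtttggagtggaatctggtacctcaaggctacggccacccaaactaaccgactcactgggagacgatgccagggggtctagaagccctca
Blnk (minus strand of chr19:40994172-40994471): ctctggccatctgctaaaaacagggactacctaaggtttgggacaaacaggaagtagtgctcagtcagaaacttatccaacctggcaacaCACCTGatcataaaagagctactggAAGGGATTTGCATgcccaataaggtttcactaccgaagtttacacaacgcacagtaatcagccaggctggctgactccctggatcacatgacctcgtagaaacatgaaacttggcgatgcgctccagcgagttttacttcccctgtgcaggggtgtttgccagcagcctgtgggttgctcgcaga
In that of Igll1 the EBF1 palindrome lies at position -231 from the start site, the core at position -108, and the E-box at position -8.

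Over the 13 libraries the 8 genes gave 104 values, of which 40 were listed at 0 and 58 were at least 1 TPM. Blnk was at least 1 TPM in 13 libraries, Ebf1 in 11, Vpreb1 in 10, Pax5 in 7, Igll1 in 6, Cd79a in 5, Vpreb3 in 4, and Cd79b in 2. Most of the genes were thus high in a few mice and at 0 in others of the same genotype, which the map of levels by library shows. Of the 64 values above 0, 55 were above 1.5 steps.

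**Figure D1:**
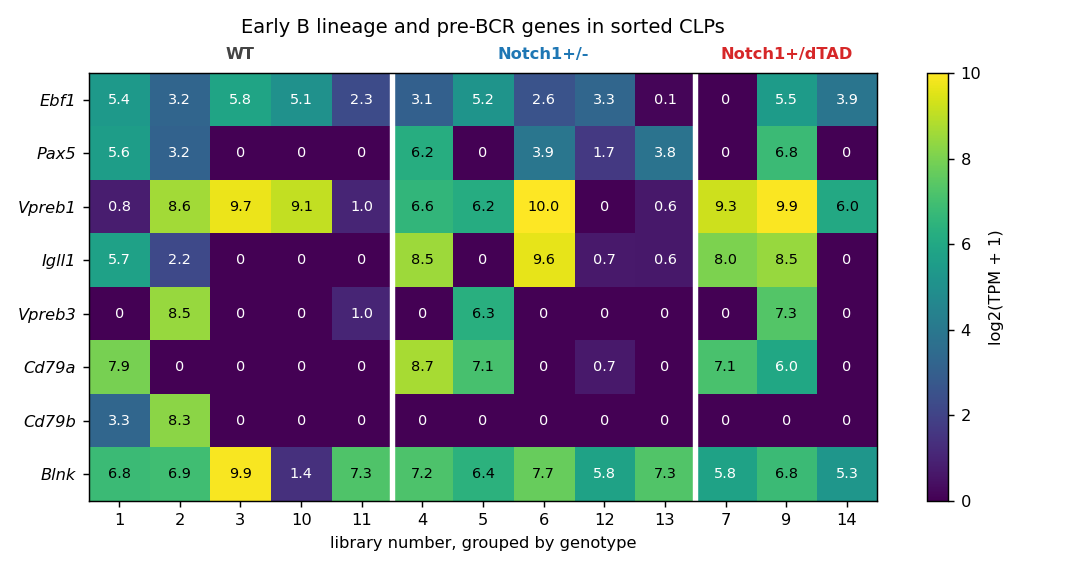
Level of each of the 8 genes (rows) in each of the 13 libraries (columns, by library number and genotype), as log2(TPM + 1) in color and in print. Blnk is above 0 in every library, Cd79b in WT libraries 1 and 2 alone, and the columns numbered 10 to 14 show no value of 1 TPM or more for Igll1 or Cd79a.

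Among the transcription factors, Ebf1 was above 0 in 12 of the 13 libraries, at up to 56.2 TPM. In WT libraries 1, 2, 3, 10, and 11 it had 40.3, 8.50, 56.2, 32.5, and 3.91 TPM. In Notch1+/- libraries 4, 5, 6, 12, and 13 it had 7.33, 35.4, 4.94, 8.94, and 0.109 TPM, and in Notch1+/dTAD libraries 7, 9, and 14 it had 0, 44.3, and 13.7 TPM. The 3 genotypes overlapped, with the lowest values in Notch1+/- library 13 and Notch1+/dTAD library 7. Pax5, which maintains B cell identity, had 46.6 and 7.89 TPM in WT libraries 1 and 2 and 0 in the other 3. In Notch1+/- libraries it had 73.9, 0, 14.3, 2.198, and 13.0 TPM, and among Notch1+/dTAD libraries it was above 0 in library 9 alone, at 112 TPM. At 1 TPM or more, Ebf1 and Pax5 were both present in 6 libraries, Ebf1 without Pax5 in 5, and Pax5 without Ebf1 in 1.

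Vpreb1 and Igll1 are the surrogate light chain genes. WT libraries 1, 2, 3, 10, and 11 had 0.745, 396, 841, 540.4, and 1.04 TPM of Vpreb1. The Notch1+/- libraries had 94.4, 72.2, 1029, 0, and 0.550 TPM, and the Notch1+/dTAD libraries 609, 985, and 65.2 TPM. High and low values of Vpreb1 occurred together within WT and within Notch1+/-, and the 3 low values of 0.745, 1.04, and 0.550 TPM were each 1 step. In WT library 3 the value of Vpreb1 was not a whole multiple, at 897.3 steps, and this was the only library that listed Vpreb2 above 0, at 13.9 TPM.

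Igll1, the partner of Vpreb1, had 51.4 and 3.62 TPM in WT libraries 1 and 2 and 0 in WT libraries 3, 10, and 11. In Notch1+/- libraries it had 370.5, 0, 791, 0.590, and 0.550 TPM, and in Notch1+/dTAD libraries 259, 353, and 0 TPM. Every WT value was thus below 4 of the 8 values of the other genotypes, yet each genotype held libraries at or near 0. Vpreb1 and Igll1 were both at least 1 TPM in 5 libraries, namely WT library 2, Notch1+/- libraries 4 and 6, and Notch1+/dTAD libraries 7 and 9. Vpreb1 was present without Igll1 in 5 libraries and Igll1 without Vpreb1 in 1, so the 2 partner transcripts were often not listed together. Vpreb3 was above 0 in 4 libraries, with 356 TPM in WT library 2, 1.04 TPM (1 step) in WT library 11, 78.3 TPM in Notch1+/- library 5, and 159.5 TPM in Notch1+/dTAD library 9.

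The signaling chain genes Cd79a and Cd79b were at least 1 TPM in 5 and 2 libraries. Cd79a had 246 TPM in WT library 1 and 0 in the other 4 WT libraries. It had 419.6, 135, 0, 0.590, and 0 TPM in Notch1+/- libraries and 140.1, 60.9, and 0 TPM in Notch1+/dTAD libraries. Cd79b was above 0 in 2 libraries, WT libraries 1 and 2, with 8.94 and 305 TPM, and was listed at 0 in all 8 libraries of the other genotypes. WT library 1 was the only library with both chains of the heterodimer at 1 TPM or more, and 4 libraries had Cd79a alone and 1 had Cd79b alone.

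Blnk, the adaptor, was above 0 in every library. WT libraries 1, 2, 3, 10, and 11 had 112, 122, 969, 1.65, and 153 TPM, Notch1+/- libraries had 149, 84.7, 204, 54.1, and 157 TPM, and Notch1+/dTAD libraries had 53.6, 112, and 37.2 TPM. All 8 libraries of the mutants lay between the lowest and the highest WT library. The SD of log2(TPM + 1) over the 13 libraries was 1.91 for Blnk and 1.93 for Ebf1, compared with 3.97 for Vpreb1 and 4.00 for Igll1, and within WT it was 3.10 for Blnk and 1.52 for Ebf1.

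**Figure D2:**
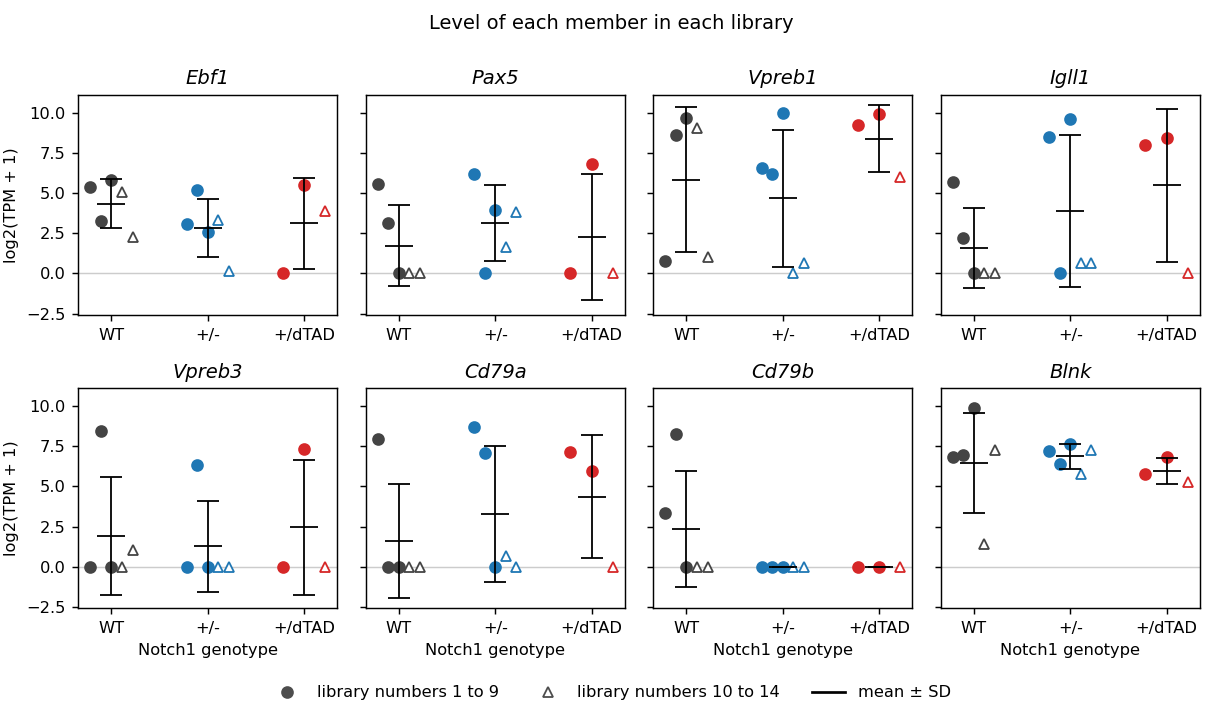
Level of each of the 8 genes as log2(TPM + 1) by Notch1 genotype, 1 point per library, with circles for library numbers 1 to 9, triangles for 10 to 14, and black bars for the mean ± SD of 5 WT, 5 Notch1+/-, and 3 Notch1+/dTAD libraries. The genotypes overlap for every gene, and the triangles of Igll1 and Cd79a lie at or near 0.

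Comparison of Notch1+/dTAD with WT CLPs addressed whether loss of the transactivation domain from 1 allele changes transcription in CLPs. Comparisons used limma on log2(TPM + 1), for genes that reached 1 TPM in 3 libraries or, for Notch1+/- against WT, in 5, and a Benjamini-Hochberg adjusted p under 0.05 over all genes tested was the threshold. Of the 8 genes, 7 could be tested and 0 passed. Of all 4737 genes tested, 0% passed the threshold (15 genes did when limma was run without its mean-variance trend, none of them among these 8) and 5% had an unadjusted p under 0.05, which none of the 7 had (1 of the 7 did without WT library 1, without Notch1+/dTAD library 14, or in library numbers 1 to 9 only). The largest difference was that of Igll1, with a mean of 204 ± 183 TPM (SD, n = 3) in Notch1+/dTAD and 11.0 ± 22.6 TPM (SD, n = 5) in WT libraries, and 3.91 on the log2 scale (95% confidence interval -1.11 to 8.93, limma adjusted p = 0.952). For Cd79a the difference was 2.77 (SE 2.37) and for Vpreb1 2.56 (SE 2.09), with limma adjusted p-values of 0.981 and 0.972. Ebf1 and Blnk had differences of -1.24 and -0.52, and Pax5 and Vpreb3 of 0.53 and 0.54. The median of the 7 was 0.54 beside 0.47 over all genes tested. Under quantile normalization the median of all genes was -0.02, and the split of the genes at an unadjusted p under 0.05 moved from 196 higher and 41 lower to 136 and 69.

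Notch1+/- CLPs were compared with the same WT libraries to show the effect of losing 1 allele. Only 4 of the 8 genes were at least 1 TPM in 5 libraries and could be tested, and 0 passed the threshold, as for 0% of all 3178 genes tested (2 genes passed without the trend), with 5.35% at an unadjusted p under 0.05. Ebf1 differed by -1.51 (95% confidence interval -4.68 to 1.67), Pax5 by 1.38 (-1.90 to 4.66), Vpreb1 by -1.17 (-6.04 to 3.70), and Blnk by 0.41 (-2.39 to 3.21), each with a limma adjusted p of 0.993. The median of the 4 was -0.38 beside 0.06 over all genes tested. Of the genes not tested, Igll1 differed by 2.31 and Cd79a by 1.71, and Cd79b and Vpreb3 by -2.31 and -0.64 on the log2 scale.

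Between the mutants, 7 of the 8 genes were tested in a model of all 13 libraries, and 0 passed, as for 0% of all 6281 genes tested (3 genes passed without the trend), with 5.33% at an unadjusted p under 0.05, as for 0 of the 7 (1 without Notch1+/- library 6). Vpreb1 had the largest difference, with 553 ± 462 TPM (SD, n = 3) in Notch1+/dTAD and 239 ± 444 TPM (SD, n = 5) in Notch1+/- libraries, and 3.73 on the log2 scale (95% confidence interval -1.07 to 8.54, limma adjusted p = 0.997). The other 6 differences lay between -0.93 for Blnk and 1.60 for Igll1. The median of the 7 was 1.07 beside 0.35 over all genes tested. The intervals of the tested genes were wide enough to include 0 in every genotype comparison, as the plot of differences shows, so neither a difference nor its absence was shown.

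**Figure D3:**
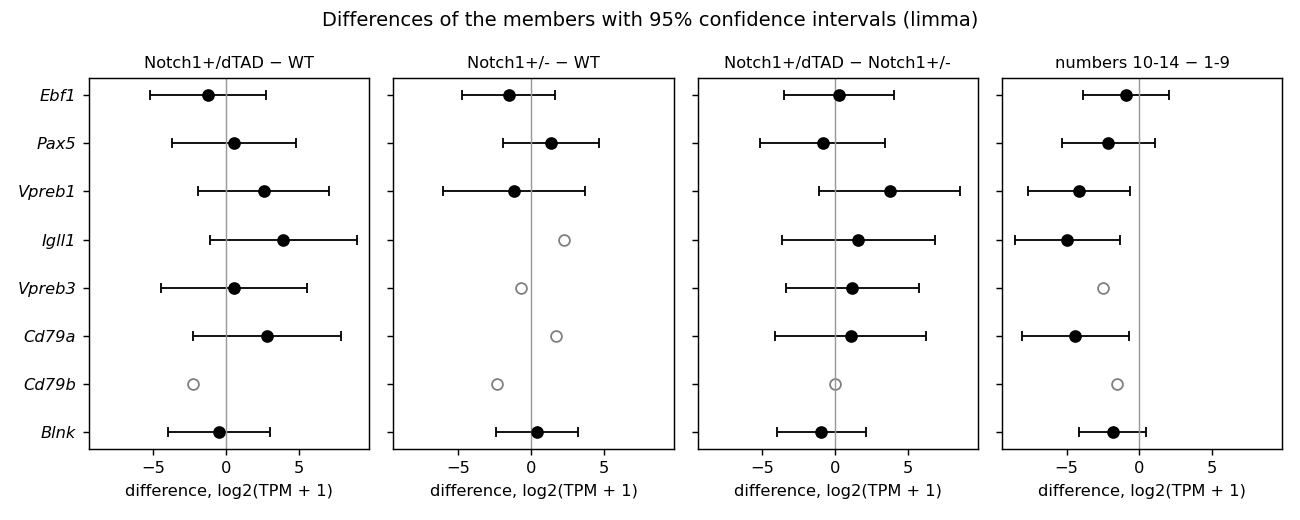
Differences in log2(TPM + 1) of the 8 genes (rows) in the 3 genotype comparisons and between library numbers 10 to 14 and 1 to 9, with 95% confidence intervals from limma and open circles for genes that were not tested. All intervals of the genotype comparisons include 0, and in the panel at the right those of Vpreb1, Igll1, and Cd79a do not. The split in that panel was chosen after the values were seen, so its intervals are descriptive.

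The libraries of the groups overlapped for all 8 genes in all 3 comparisons, where 3.12%, 0.787%, and 3.06% of all genes tested did not overlap between Notch1+/dTAD and WT, between Notch1+/- and WT, and between Notch1+/dTAD and Notch1+/-. In exact permutation tests (2-sided) on means of log2(TPM + 1), the smallest p of the 24 was 0.161, for Blnk between the mutants, and that of Igll1 in Notch1+/dTAD against WT was 0.179. The smallest p such tests allow is 0.0179 for 3 libraries against 5 and 0.00794 for 5 against 5.

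Summed over the 8 genes, WT libraries had 159 to 1866 TPM (median 575), Notch1+/- libraries 66.4 to 2043 TPM (median 406), and Notch1+/dTAD libraries 116 to 1827 TPM (median 1061). Within each genotype the libraries spread more widely than the medians of the genotypes differed. The gene with the greatest share of the summed TPM differed between libraries. Cd79a made up the greatest share in WT library 1 and Notch1+/- libraries 4 and 5, Blnk in WT libraries 3 and 11 and Notch1+/- libraries 12 and 13, and Vpreb1 in the other 6. The shares of the leading gene ran from 33.0% in WT library 2 to 96.2% in WT library 11.

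**Figure D4:**
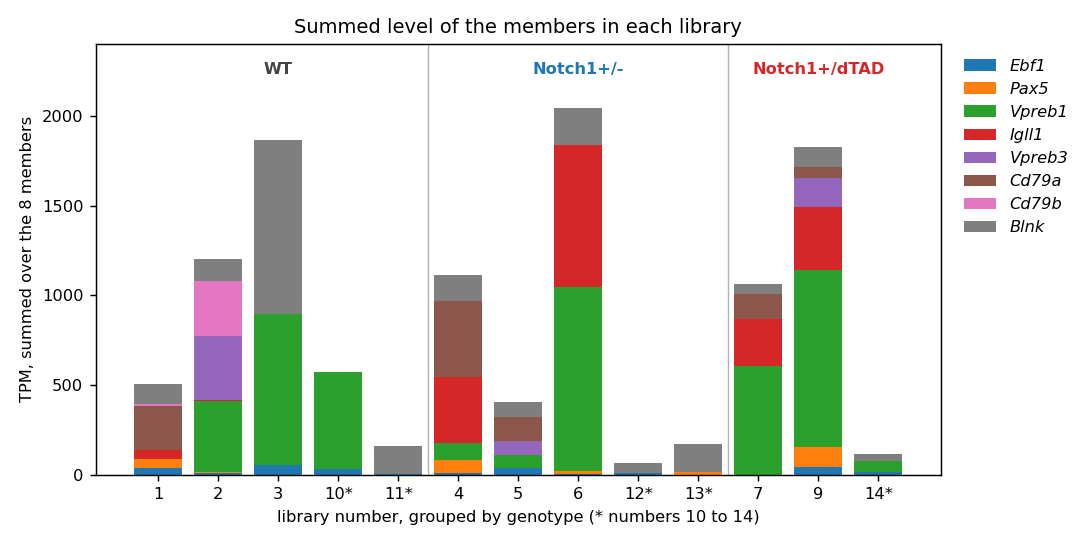
TPM summed over the 8 genes in each library (bars, by library number and genotype), with the part of each gene in color and an asterisk on library numbers 10 to 14. The sum runs from 66.4 TPM in Notch1+/- library 12 to 2043 TPM in Notch1+/- library 6, and the leading gene differs between libraries of the same genotype.

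Levels were also set against the library number. The libraries are numbered from 1 to 14, and both numbers 1 to 9 (8 libraries) and 10 to 14 (5 libraries) include all 3 genotypes. According to the labels all libraries were prepared in one round, so what the number stands for is not given, and this comparison was chosen after the values were seen. Summed over the 8 genes, libraries 1 to 9 had 406 to 2043 TPM (median 1157) and libraries 10 to 14 had 66.4 to 575 TPM (median 159). At 1 TPM or more, Igll1 was present in 6 of 8 libraries numbered 1 to 9 and in 0 of 5 numbered 10 to 14, and Cd79a in 5 and in 0. Vpreb1 was present in 7 of 8 and in 3 of 5, and Blnk in 8 of 8 and in 5 of 5.

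With genotype and range of numbers as terms in limma, 6 of the 8 genes were tested and 0 passed the threshold, as for 0% of all 4307 genes tested, of which 5.87% had an unadjusted p under 0.05. At an unadjusted p under 0.05 there were 3 of the 6, all lower in libraries 10 to 14, beside 1.69% of all genes tested (73 lower and 180 higher, or 110 and 156 after quantile normalization). Because the split was chosen after the values were seen, p-values and intervals between ranges, here and below, describe it and cannot test it. Igll1 differed by -4.94 on the log2 scale (SE 1.71, limma unadjusted p = 0.0103, adjusted p = 0.635). Cd79a differed by -4.39 (SE 1.74, limma unadjusted p = 0.0215, adjusted p = 0.716) and Vpreb1 by -4.14 (SE 1.67, limma unadjusted p = 0.0240, adjusted p = 0.736). For Blnk, Pax5, and Ebf1 the differences were -1.84, -2.13, and -0.93. The median of the 6 was -3.14 beside 0.20 over all genes tested, of which 44% were below 0. Without Notch1+/dTAD library 14, the only one of its genotype in the upper range, 1 of the 6 had an unadjusted p under 0.05. Exact permutation tests (2-sided) with the range permuted within genotype (300 arrangements) gave 0.0567 for Igll1, 0.07 for Blnk, 0.0767 for Vpreb1, and 0.0867 for Cd79a. The ranges overlapped for all 8 genes, as they did for all but 0.279% of the genes tested.

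Within ranges, the genotype differences were not the same in size. In libraries 1 to 9, with 2 Notch1+/dTAD and 3 WT libraries, those of Igll1, Cd79a, and Vpreb1 were 5.60, 3.90, and 3.21 on the log2 scale. In libraries 10 to 14, with 1 and 2 libraries, they were 0, 0, and 0.99. Igll1 and Cd79a were listed at 0 in all of these WT and Notch1+/dTAD libraries, so no genotype difference of these genes could be seen there. For Notch1+/- against WT, the difference of Vpreb1 was 1.21 in libraries 1 to 9 and -4.74 in libraries 10 to 14, and that of Blnk was -0.79 and 2.21. For Notch1+/dTAD against Notch1+/-, the difference of Vpreb1 was 2.01 in libraries 1 to 9 and 5.73 in libraries 10 to 14. The differences between ranges in these effects were not tested.

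None of the genes of the other lists passed the threshold between ranges. Ly6d, the marker of B-biased CLPs, had 933 to 2559 TPM in libraries 1 to 9 and 194 to 1801 TPM in libraries 10 to 14 (difference -1.70, limma unadjusted p = 0.00128, adjusted p = 0.417). Rag1, which begins immunoglobulin gene rearrangement, had 1.78 to 61.1 TPM and 0 to 7.08 TPM (-3.53, limma unadjusted p = 0.0147, adjusted p = 0.676). Dntt, which adds nucleotides at the joins, differed by -0.43 on average, with an exact permutation p of 0.227. Other B lineage and pre-BCR signaling genes were higher in libraries 10 to 14. Spib differed by 4.15 (limma unadjusted p = 0.00477, adjusted p = 0.543), Btk by 3.43 (limma unadjusted p = 0.0291, adjusted p = 0.759), and Cd72 by 3.05. Differences above and below 0 numbered 8 and 9 among the tested B lineage transcription factors. They numbered 1 and 8 among the surface and enzyme genes and 8 and 6 among those of pre-BCR signaling. Of the plasmacytoid dendritic cell markers, 5 of 8 were tested and all 5 differences were below 0, with 1175 to 3482 TPM in sum in libraries 1 to 9 and 576 to 1721 TPM in libraries 10 to 14. Of the myeloid markers, 6 of 17 were tested and all 6 were above 0, with 366 to 2461 and 478 to 2269 TPM in sum. Among the mature B and plasma cell markers, 5 of 16 were tested, with 4 differences above 0 and 1 below. Their sums were 1.03 to 1339 TPM in libraries 1 to 9 and 545 to 1244 TPM in libraries 10 to 14. Of the 16 markers, 12 were measured and 5 were at 0 in all 13 libraries, Ms4a1 among them. Those with the smallest limma p were the MHC class II genes H2-Eb1, H2-Aa, and H2-Ab1. Which cells the sums come from was not tested. The number of genes above 0 was 3264 to 4973 in libraries 1 to 9 and 3744 to 6326 in libraries 10 to 14. The part of these in the lower levels of the 8 genes was not tested, and in sorted cells in bulk, fewer cells of a type and less RNA per cell cannot be told apart.

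Across the 13 libraries, 0 of the 28 pairs of the 8 genes had an adjusted permutation p under 0.05 for Pearson's r. With 40 of the 104 values listed at 0, this does not show that the genes varied separately. Pearson's r of log2(TPM + 1) was above 0 in 22 of 28 pairs, with a median of 0.0989, and these values describe libraries that share genotype and range. Among Pax5 and Igll1, the pair with the highest r, it was 0.675 (permutation p = 0.0147, and 0.412 after adjustment over 28 pairs), with Spearman's rho of 0.794 (permutation p = 0.00269, adjusted 0.0753). Without the 2 libraries farthest from the median of Pax5, r was 0.475, and after removal of the means of genotype and range it was 0.620. The 2 genes were both at least 1 TPM in 5 libraries. Over all pairs, the median after removal of those means was -0.0776, and 12 of 28 were above 0. The genes most like the mean of the 8, by Pearson's r over 13 libraries among 2979 genes, were Prkca (0.797), Arpc1b (0.775), Ly6d (0.756), Grk2 (0.747), and Sugp2 (0.721). After removal of the means of genotype and range these were 0.359, 0.352, 0.219, 0.602, and 0.396.

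The rest of the pathway was read from 3 lists. Of 24 other transcription factors of the B lineage, 17 were tested in Notch1+/dTAD against WT, 15 in Notch1+/- against WT, and 19 between the mutants, and 0 passed the threshold in any of them, also at an unadjusted p under 0.05. Their median differences were -0.10, -0.16, and -0.18, beside 0.47, 0.06, and 0.35 over all genes tested. Erg, a factor of progenitors, had 0 to 57.5 TPM in WT, 0.331 to 354 TPM in Notch1+/-, and 27.99 to 106 TPM in Notch1+/dTAD libraries. Irf8 was steadier, with 300.5 to 1129, 320.1 to 919, and 786 to 1389 TPM. Tcf3, which encodes the E2A proteins, had 0.0517 to 19.0, 0 to 20.2, and 0.0416 to 11.7 TPM.

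Of 20 surface and enzyme genes of the early B lineage, 10, 8, and 12 were tested in the same order, and 0 passed. Ly6d had an unadjusted p under 0.05 between the mutants, with 1801 to 2302 TPM in Notch1+/dTAD and 194 to 1538 TPM in Notch1+/- libraries and no overlap (difference 1.62, limma unadjusted p = 0.0403, adjusted p = 0.932). Ly6d was 1 of the 12 tested, beside 5.33% of all genes at an unadjusted p under 0.05 and 3.06% without overlap. The lowest Notch1+/- values, 309 and 194 TPM, were those of libraries 12 and 13. Dntt was high throughout, from 2095 to 9616 TPM. Of 22 genes of pre-BCR signaling, 13, 9, and 18 were tested and 0 passed. Lyn, a kinase that phosphorylates CD79A and CD79B, had 8.63 to 138 TPM in Notch1+/dTAD and 0 to 45.8 TPM in WT libraries (difference 4.38, limma unadjusted p = 0.0452, adjusted p = 0.952). Lyn was 1 of the 13 tested, beside 5% of all genes tested at an unadjusted p under 0.05. Btk, a kinase that BLNK brings to its substrate, had 23.5 to 206 TPM in Notch1+/dTAD, 0.334 to 217 TPM in Notch1+/-, and 0 to 149.8 TPM in WT libraries.

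The sorted cells carried the markers of CLPs in part. Flt3 (CD135) and Ly6d were above 0 in 13 libraries and Il7r (CD127) in 12, whereas Kit was above 0 in 8, with a median of 0.201 TPM. Ms4a1, a marker of mature B cells, was at 0 in all 13, as were Hbb-bs, Gata1, and Klf1 of erythroid cells and Cd3e and Cd8a of T cells. Ighm, Ighd, and Igkc were not found by symbol among the genes measured and so could not be analysed. Mpo was above 0 in 10 libraries, S100a8 in 7, Nkg7 in 5, and Siglech in 13. Notch1 itself had 0 to 25.7 TPM in WT, 9.27 to 78.5 TPM in Notch1+/-, and 0.893 to 35.0 TPM in Notch1+/dTAD libraries, so its level gave no check of the genotypes.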

How the data were processed

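RNA of sorted CLPs was sequenced as strand-specific QuantSeq 3′ libraries, aligned by the authors with STAR to mm10. The deposited values are TPM in 2 tables, WT with each mutant, and the WT columns were identical in both. The tool and gene annotation behind the TPM, any filter, and the use of strand to assign reads are not given in the sources used here. The authors' comparisons by DESeq2 could not be repeated on TPM.

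Comparisons were made on log2(TPM + 1) by limma 3.58.1 (R 4.3.3) with the eBayes trend, 2-sided. Fold changes are on this scale and understate those of low genes. The 95% confidence intervals come from the same fits. The minimum was 1 TPM in 3 libraries for Notch1+/dTAD against WT. Between the mutants it was also 3, counted over all 13 libraries, WT included. For Notch1+/- against WT it was 5, and between ranges 5 of all 13 libraries. In each comparison all genes that reached the minimum were tested and adjusted together. Exact permutation tests (Python 3.11.15, scipy 1.17.1) counted splits with an absolute difference at least as large as observed, and correlations used 100000 permutations. Tests were tried on simulated data. With 1 library per mouse, p-values of the comparisons rest on the spread between libraries. That spread joins differences between mice and noise of the measurement, which cannot be told apart. Both comparisons with WT share the WT libraries.

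Named genes were the 8 genes, Notch1, Vpreb2, the defining cell type markers, the genes of smallest limma p in 3 pathway lists, and the 5 genes most like the mean of the 8. A subset of those is named here. The genes and lists were chosen with earlier results of these data known. Alternatives were to leave out each library, to use a pseudocount of 0.1 or 10, to test all genes above 0 or those with a mean of 10 TPM or more, to normalize by quantiles or by median ratios, to drop the trend, to weight libraries, to add a term for the range of library numbers, and to change the samples in the model. Comparisons of library numbers 10 to 14 with 1 to 9, and within 1 to 9, were added after the values were seen.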

Additional observations from a re-analysis of the deposited data

Results flagged for a closer look

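Single libraries stood far from the other 4 of their genotype in 10 of the 15 groups of 5 libraries with any value above 0, judged by the gap of the highest or lowest TPM to its neighbor over the range of the group. Chance gives this in about 1 in 20 groups, or 0.75 of 15, for values spread like a normal distribution, which TPM with many zeros are not. In each case it was the highest library. In 2 of the 10 the gene was above 0 in that library alone.

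In WT, library 1 stood apart for Pax5 (46.6 TPM), Cd79a (246 TPM), and Igll1 (51.4 TPM), library 2 for Cd79b (305 TPM) and Vpreb3 (356 TPM), and library 3 for Blnk (969 TPM). In Notch1+/-, library 4 stood apart for Pax5 (73.9 TPM), library 5 for Ebf1 (35.4 TPM) and Vpreb3 (78.3 TPM), and library 6 for Vpreb1 (1029 TPM). All of these libraries are numbered from 1 to 9. The 3 Notch1+/dTAD libraries are too few for this check.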

How the results depend on the processing

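None of the 8 genes passed the threshold in any genotype comparison, or between ranges of library numbers, under any alternative run. Of 472 recomputed genotype differences of single genes, 452 kept their direction or stayed at 0 and 20 turned, and none of the 144 between ranges turned. The cause was not tested for any of them.

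Without the mean-variance trend, 15 of all genes passed in Notch1+/dTAD against WT, 2 in Notch1+/- against WT, and 3 between the mutants, and in 1 model of all 13 libraries 5 passed in Notch1+/dTAD against WT. Between ranges 1 gene passed with a pseudocount of 10, and 0 to 1 when single libraries were left out. Turned differences between the mutants were those of Ebf1 at -0.28 (pseudocount 0.1), -0.58 (quantile normalization), and -0.85 (library numbers 1 to 9 only), and of Pax5 at 0.036 (pseudocount 10) and 0.024 (library numbers 1 to 9 only). Within library numbers 1 to 9, Vpreb1 was at 1.21 and Blnk at -0.79 in Notch1+/- against WT.

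When single libraries were left out, the differences in Notch1+/dTAD against WT ran from -1.79 to 0.34 for Blnk (above 0 without WT library 3), from -2.42 to 0.33 for Ebf1 (without Notch1+/dTAD library 7), and from -1.74 to 1.67 for Pax5 and -1.90 to 2.18 for Vpreb3 (both below 0 without Notch1+/dTAD library 9). In Notch1+/- against WT they ran from -0.85 (without WT library 10) to 1.28 for Blnk and from -1.90 to 1.00 (without WT library 2) for Vpreb3, which was not tested. Between the mutants they ran from -0.92 to 1.83 for Ebf1 (below 0 without library 9, 13, or 14, with -0.41 and -0.11 for the last 2), from -3.13 to 0.28 for Pax5 (above 0 without Notch1+/dTAD library 7 or 14), from -0.32 (without library 7) to 3.25 for Cd79a, and from -1.26 to 2.44 for Vpreb3, the last below 0 without Notch1+/dTAD library 9. The median correlation of the 8 genes was 0.132 after quantile normalization, -0.0906 in library numbers 1 to 9, and 0.0730 to 0.180 with single libraries left out.

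No paired analysis was possible because library numbers are not shared between genotypes. With 3 to 5 mice per genotype, no read counts, and most of the genes listed at 0 in some mice, differences of several units on the log2 scale lie within the intervals. Exact permutation tests with 3 libraries against 5 cannot give a p below 0.0179.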
